A study of Homo sapiens with 7 samples.

Results

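KLF transcription factor genes were followed in H9 cells, an established line of human embryonic stem cells, after transfection with guide RNA plasmids. The 10 genes described, chosen by symbol from the table of raw counts, were KLF2, KLF3, KLF4, KLF5, KLF6, KLF9, KLF10, KLF11, KLF16 and KLF17, out of 59251 rows, and all 10 were present and had enough counts to be tested. The series concerns LINE1 retrotransposons beside the ribosomal DNA repeats and the organization of the nucleolus. It compares 4 libraries named CTRL with 3 named DJL1. Both groups were H9 cells kept in RSeT, a medium for the naive state, and both were transfected in RSeT with 10 nM DZNep, an inhibitor of histone methylation, and 5 nM TSA, a histone deacetylase inhibitor. For the initial 16 h both groups also had the CEPT survival cocktail (Chroman 1, Emricasan, polyamine and Trans-ISRIB), and RNA was taken 48 h after transfection. The treatment label mentions a sort of the cells and the series design does not, so whether the RNA is from sorted transfected cells or from all cells of the culture is unclear. All values therefore come from cells under these 2 chromatin inhibitors. Neither the effector protein that works with the guides, nor the content of the CTRL plasmids, nor the origin of the replicates is named in the labels, so p-values measure the spread between these libraries, which may be technical.

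KLF proteins bind GC-rich and CACCC-type DNA through a row of zinc fingers at the carboxyl end, and their differing amino-terminal parts recruit activators or repressors. KLF4 is one of the factors used to reprogram somatic cells, and KLF2, KLF4 and KLF5 help to hold mouse embryonic stem cells in the naive state. In human cells KLF17 is a marker and promoter of the naive state. KLF3 recruits the corepressor CtBP, whereas KLF9, KLF10, KLF11 and KLF16 recruit the corepressor Sin3A, and KLF10 and KLF11 were first described as early genes of TGF-beta signalling.

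The stretches upstream of 4 of the genes are shown because these members moved in different directions and because KLF proteins bind the letters marked in them. Each is the 250 bases before a RefSeq start site (GRCh38.p14), written 5′ to 3′ on the strand of the gene, with capitals for every match, on either strand and overlaps included, of CCACCC, a core of the sites that KLF proteins bind, of GGGCGG, the GC box, and of TATAAA, the TATA box. The KLF5 stretch is the one before the downstream of its 2 listed starts.
KLF17, chr1:44118571-44118820, plus strand: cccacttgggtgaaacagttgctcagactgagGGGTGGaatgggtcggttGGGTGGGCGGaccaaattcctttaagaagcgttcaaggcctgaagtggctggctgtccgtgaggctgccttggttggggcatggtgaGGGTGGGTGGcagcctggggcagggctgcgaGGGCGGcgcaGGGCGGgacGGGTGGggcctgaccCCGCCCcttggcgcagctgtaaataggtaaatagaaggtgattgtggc
KLF5, chr13:73058755-73059004, plus strand: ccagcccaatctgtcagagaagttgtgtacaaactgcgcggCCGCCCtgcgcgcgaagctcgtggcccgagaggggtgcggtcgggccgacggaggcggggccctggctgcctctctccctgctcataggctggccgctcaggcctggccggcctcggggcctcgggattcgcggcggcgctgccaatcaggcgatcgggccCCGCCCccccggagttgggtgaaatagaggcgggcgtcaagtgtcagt
KLF4, chr9:107489770-107490019, minus strand: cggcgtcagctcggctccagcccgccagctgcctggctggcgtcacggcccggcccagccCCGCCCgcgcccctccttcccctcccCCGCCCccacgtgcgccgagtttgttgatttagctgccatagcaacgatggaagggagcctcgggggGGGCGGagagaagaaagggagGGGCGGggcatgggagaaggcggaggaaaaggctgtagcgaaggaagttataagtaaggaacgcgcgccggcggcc
KLF2, chr19:16324576-16324825, plus strand: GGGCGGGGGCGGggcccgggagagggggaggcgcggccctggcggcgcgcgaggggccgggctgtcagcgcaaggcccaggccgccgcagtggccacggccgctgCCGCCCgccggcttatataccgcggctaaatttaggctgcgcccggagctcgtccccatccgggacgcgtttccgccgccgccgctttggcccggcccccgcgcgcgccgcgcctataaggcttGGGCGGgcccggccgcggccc
The KLF17 stretch held 5 matches to CCACCC and 4 to GGGCGG. Those of KLF4 and KLF2 each held 4 matches to GGGCGG and none to CCACCC. Promoter entries were found for 8 of the 10 members, in 10 stretches. GGGCGG occurred in 8 of these 10 and in 42.6% of the 35114 stretches of the same length in the table. CCACCC occurred in 1 of the 10, that of KLF17, and in 31.3% of all. TATAAA occurred in 1 of the 10, before the upstream start of KLF5, and in 10.7% of all. GC content of the 8 stretches with GGGCGG ran from 62.8% to 86.4%, and the median over all stretches was 58.0%. The member that rose most and the member that fell most thus both carried several GC-box letters, and a match describes letters, not a site in use.

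Of the 10 KLF genes, 8 rose and 2, KLF2 and KLF16, fell in DJL1 (edgeR quasi-likelihood, adjusted p under 0.05 after Benjamini-Hochberg correction over 26062 tested genes). The background is high: 52.0% of all tested genes were called, 27.0% higher and 25.1% lower, and among genes within 2-fold of each member's mean level the share called ran from 58.6% (KLF17) to 75.3% (KLF6). The libraries of the 2 groups did not overlap for any of the 10 members, as for 53.6% of all tested genes (27.4% with DJL1 above and 26.2% with DJL1 below). The median log2 fold change of the 10 was 0.62, beside 0.01 over all tested genes and 0.21 over 16 other tested KLF and SP genes. The 10 were chosen with earlier results of these data known, so these counts and this median are a description. Values are CPM, counts per 1000000 counts of the library after scaling, a fold change is DJL1 against CTRL, and ± is the SD over the libraries of a group (n = 4 in CTRL, n = 3 in DJL1) unless an SE is named. Summed over the 10 genes, the level ran from 579 to 593 CPM in CTRL and from 827 to 922 CPM in DJL1.

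**Figure D1:**
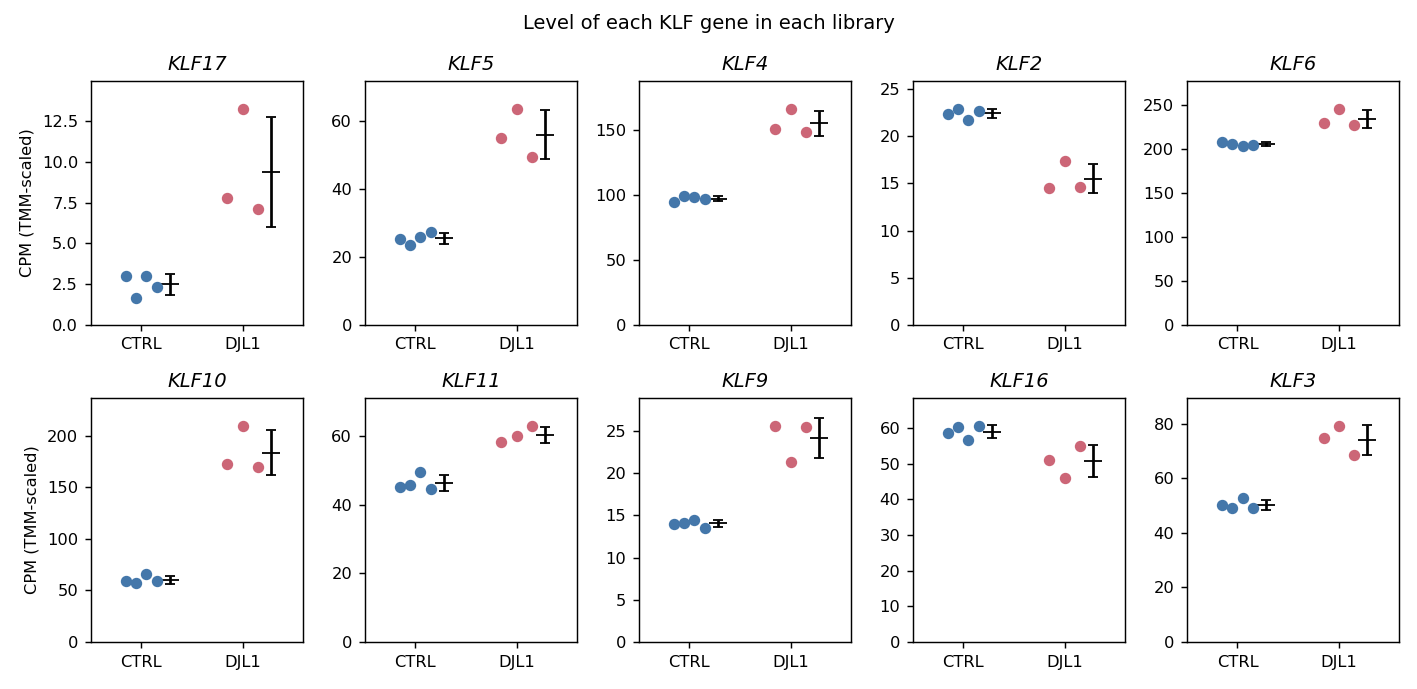
CPM (vertical axes, each from 0) of the 10 KLF genes in 4 CTRL and 3 DJL1 libraries, with 1 point for each library and a bar for the mean and SD. DJL1 points lie above all CTRL points for 8 genes and below them for KLF2 and KLF16.

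Total counts ran from 62277489 to 76691997 in CTRL and from 34634882 to 37795742 in DJL1, so depth differed with the group without overlap. Pluripotency markers stood at 9117 to 9324 CPM in sum in CTRL and 7930 to 8756 CPM in DJL1, with POU5F1 at a mean of 5324 and 5354 CPM, and 8 of the 10 markers were lower. Fibroblast and feeder-cell markers were higher in 9 of 13 tested cases and lower in 1 case (731 to 761 CPM in sum in CTRL, 1131 to 1241 CPM in DJL1), while 2 of the 15 listed, DCN and LUM, were at 0 to 6 counts per library. Trophectoderm markers were higher in 12 of 13 tested cases and lower in 1 case (304 to 313 CPM in sum, against 386 to 408 CPM), with 2 more, CGA and VTCN1, at 0 to 8 counts. Endothelial and blood markers, for cell types rich in KLF2, were at 44.8 to 47.4 CPM in sum in CTRL and 44.8 to 48.9 CPM in DJL1, with 2 of 7 tested higher and 1 lower, and CDH5, GATA1 and PTPRC at 0 to 14 counts. Beside these counts, 27.0% of all tested genes were higher and 25.1% lower. The part of these cell types in the KLF values was not tested, and in bulk RNA fewer cells of a type and less RNA per cell cannot be told apart.

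KLF17, the member tied to the human naive state, had the largest fold change of the 10 and the lowest level. Its 4 CTRL libraries stood at 2.98, 1.64, 2.99 and 2.32 CPM (125 to 186 counts) and its 3 DJL1 libraries at 7.75, 13.2 and 7.09 CPM (263 to 464 counts). Every DJL1 library was above every CTRL library, and DJL1 replicate 2 stood well above the other 2. From 2.48 ± 0.64 CPM (SD, n = 4) to 9.36 ± 3.37 CPM (SD, n = 3), the log2 fold change was 1.92 ± 0.23 (SE, edgeR adjusted p = 1.0e-05). Without DJL1 replicate 2 it was 1.58 (edgeR adjusted p = 9.7e-06). Of all tested genes 2.90% had a higher log2 fold change.

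KLF5, an activator of the naive and trophectoderm programmes in the early embryo, also rose in every DJL1 library. It was at 25.3, 23.4, 26.0 and 27.3 CPM in CTRL and at 55.2, 63.6 and 49.4 CPM in DJL1. The lowest DJL1 library was 1.81 times the highest CTRL library, and the log2 fold change was 1.14 ± 0.07 (SE, edgeR adjusted p = 8.5e-09). KLF4, the reprogramming factor, was far more abundant, at 94.6, 98.9, 98.3 and 96.5 CPM in CTRL and 151, 166 and 148 CPM in DJL1. Both groups were tight for KLF4, with SDs of 1.99% and 6.23% of the mean, and the log2 fold change was 0.68 ± 0.04 (SE, edgeR adjusted p = 8.3e-09).

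KLF2, a target of the ERK5 and MEF2 pathway and the third KLF of the mouse naive network, went the other way. Its CTRL libraries were at 22.4, 22.9, 21.7 and 22.7 CPM and its DJL1 libraries at 14.6, 17.3 and 14.6 CPM. All 3 DJL1 libraries were below the lowest CTRL library, with a log2 fold change of -0.53 ± 0.07 (SE, edgeR adjusted p = 1.4e-05). The ratio of KLF4 to KLF2 counts within a library, which no scaling affects, was 4.22 to 4.53 in CTRL and 9.58 to 10.4 in DJL1. For KLF5 to KLF2 it was 1.02 to 1.20 in CTRL and 3.37 to 3.79 in DJL1. These pairs were chosen after their values were seen and were not tested. The pseudogene row KLF2P1, whose reads may be shared with KLF2, had a log2 fold change of -0.52, and KLF2 counts were 7.54 to 11.0 times those of KLF2P1 in CTRL and 7.75 to 10.3 times in DJL1.

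**Figure D2:**
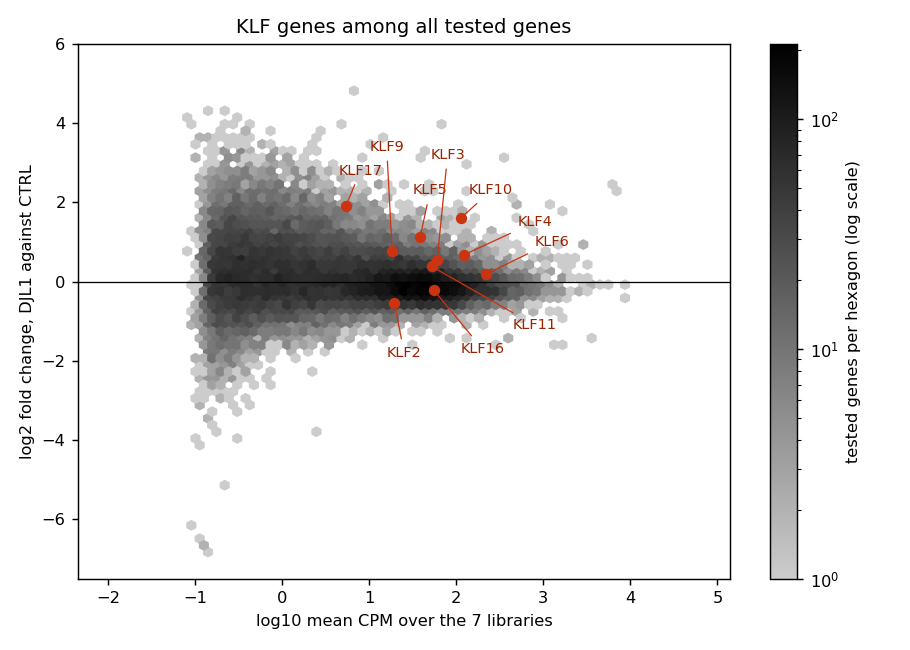
Log2 fold change of DJL1 against CTRL (vertical axis) against log10 of the mean CPM over 7 libraries (horizontal axis) for 26062 tested genes, with shading for the number of genes and red points for the 10 KLF genes. KLF10, KLF17 and KLF5 lie above most genes of their level, whereas KLF6, KLF11 and KLF16 lie within the dense band.

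Among the members that recruit Sin3A, KLF10 rose most. This TGF-beta inducible gene stood at 58.9, 56.8, 65.8 and 59.4 CPM in CTRL and at 173, 209 and 169 CPM in DJL1. Its lowest DJL1 library was 2.57 times its highest CTRL library, the widest such gap among the 10, and the log2 fold change was 1.61 ± 0.07 (SE, edgeR adjusted p = 9.8e-11). KLF11, its closest relative in that pathway, moved less, from 45.3, 45.7, 49.7 and 44.7 CPM to 58.4, 60.1 and 63.0 CPM. The groups were apart by a small margin, and the log2 fold change was 0.38 ± 0.05 (SE, edgeR adjusted p = 1.0e-05). The ratio of KLF10 to KLF11 counts was 1.24 to 1.33 in CTRL and 2.69 to 3.48 in DJL1, a pair also chosen after its values were seen.

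KLF9, a gene induced by glucocorticoid and thyroid hormone receptors, was at 14.0, 14.1, 14.4 and 13.5 CPM in CTRL and 25.5, 21.4 and 25.4 CPM in DJL1. Here DJL1 replicate 2 was the lowest DJL1 library, and the log2 fold change was 0.78 ± 0.07 (SE, edgeR adjusted p = 3.0e-07). KLF16, a GC-box binding repressor, was the second member to fall, from 58.5, 60.4, 56.8 and 60.5 CPM to 51.1, 46.1 and 54.9 CPM. The highest DJL1 library reached 0.968 times the lowest CTRL library, so the groups only just separated, and the log2 fold change was -0.22 ± 0.06 (SE, edgeR adjusted p = 0.0036). Of all tested genes 67.6% had a larger absolute log2 fold change than KLF16.

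KLF3, which represses through CtBP, was at 50.3, 49.0, 52.8 and 49.0 CPM in CTRL and 74.8, 79.0 and 68.3 CPM in DJL1. All DJL1 libraries were higher, with a log2 fold change of 0.56 ± 0.05 (SE, edgeR adjusted p = 3.2e-07). Its antisense row KLF3-AS1, whose gene overlaps the start of KLF3, had a log2 fold change of 0.57 at a mean of 1.80 CPM in CTRL and 2.67 CPM in DJL1. The strand setting of the counting is not given, so reads from the overlap cannot be told apart. KLF6, a tumour suppressor gene, was the most abundant member in CPM, at 208, 206, 204 and 204 in CTRL and 230, 246 and 227 in DJL1. The shift was the smallest of the 10, a log2 fold change of 0.19 ± 0.04 (SE, edgeR adjusted p = 0.00074), and 72.0% of tested genes had a larger absolute value.

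DJL1 replicate 2 was the highest DJL1 library for 7 of the 10 members, including KLF2, and for 34.7% of all tested genes. The SD within DJL1 ran from 3.86% of the mean (KLF11) to 36.0% (KLF17), and within CTRL from 0.94% (KLF6) to 25.9% (KLF17). For 9 of the 10 members the spread was wider in DJL1, with KLF11 the exception (4.87% in CTRL). Outside the 10 it was also wider in DJL1 for KLF7 (0.77% in CTRL, 7.70% in DJL1) but narrower for RCOR1 (4.24% and 3.50%). The share of all tested genes with a wider spread in DJL1 was not counted, so whether this is particular to these members is unknown. The DJL1 libraries also held fewer counts, and the part of depth in this spread was not tested. The authors' deposited table gave the same sign for every member, with log2 fold changes from -0.52 (KLF2) to 1.93 (KLF17).

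Compared per length, as reads per kilobase of exon per 1000000 counts (RPKM), the leading members changed places. In CTRL the order was KLF6 (34.4 ± 0.32 RPKM), KLF4 (33.1 ± 0.66), KLF16 (19.99 ± 0.60), KLF10 (15.05 ± 0.97), KLF2 (11.1 ± 0.25), KLF11 (10.8 ± 0.53), KLF3 (8.38 ± 0.30), KLF5 (6.80 ± 0.43), KLF9 (2.71 ± 0.07) and KLF17 (0.79 ± 0.21). Only KLF2 and KLF11 overlapped as neighbours in that order. In DJL1 KLF4 came first at 52.9 ± 3.29 RPKM, followed by KLF10 (45.9 ± 5.54), KLF6 (39.2 ± 1.67), KLF16 (17.2 ± 1.496), KLF5 (14.96 ± 1.91), KLF11 (14.1 ± 0.54), KLF3 (12.4 ± 0.90), KLF2 (7.69 ± 0.78), KLF9 (4.66 ± 0.46) and KLF17 (2.99 ± 1.08). There the neighbours KLF4 and KLF10, KLF16 and KLF5, KLF5 and KLF11, and KLF9 and KLF17 overlapped. Of the summed RPKM of the 10 genes, KLF10 held 10.5% ± 0.58 in CTRL and 21.6% ± 1.25 in DJL1. The share of KLF6 went from 24.0% ± 0.42 to 18.5% ± 0.34, that of KLF16 from 14.0% ± 0.52 to 8.15% ± 1.16 and that of KLF2 from 7.77% ± 0.24 to 3.62% ± 0.15. KLF4 held 23.1% ± 0.40 in CTRL and 25.0% ± 0.07 in DJL1. These lengths are of all annotated exons, so a gene that uses few of them is placed too low.

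**Figure D3:**
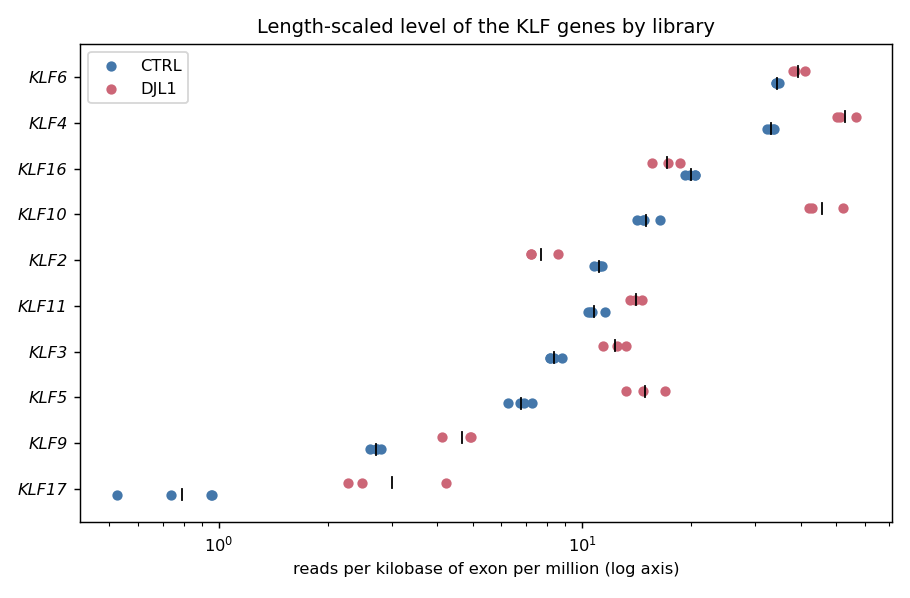
Length-scaled level of the 10 KLF genes (horizontal log axis, RPKM), with 1 point for each library, blue for 4 CTRL and red for 3 DJL1, and a black tick for the group mean. KLF10 moves from below KLF16 in CTRL to overlap with KLF4 at the top in DJL1, and KLF2 moves left.

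The other genes of the family went both ways, beside 27.0% higher and 25.1% lower over all tested genes. Of 17 further KLF and SP genes, 16 were tested, 7 were higher, 3 lower and 6 not called, with a median log2 fold change of 0.21. KLF18, a neighbour of KLF17 on chromosome 1 that is turned to the opposite strand, stood at 4.94, 3.75, 3.94 and 5.01 CPM in CTRL and 22.2, 28.2 and 25.5 CPM in DJL1. Its log2 fold change was 2.52 ± 0.11 (SE, edgeR adjusted p = 1.5e-10), and the count of KLF17 relative to KLF18 was 0.439 to 0.759 in CTRL and 0.279 to 0.470 in DJL1. SP9, a factor of limb and forebrain development, was at 1.396 to 1.83 CPM in CTRL and 8.85 to 9.36 CPM in DJL1 (log2 fold change 2.58 ± 0.13). The lowest values among called genes belonged to KLF15 (-0.49), a metabolic regulator induced by glucocorticoids, and KLF7 (-0.31), a neuronal member. SP1, the general GC-box activator, had a log2 fold change of -0.06 and was not called. KLF14 did not pass the filter on low counts, at 0 to 23 counts per library. Of 14 pseudogene, antisense and divergent rows named after KLF genes, 5 were tested, and the highest was KLF2P1 at a mean of 2.23 CPM.

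**Figure D4:**
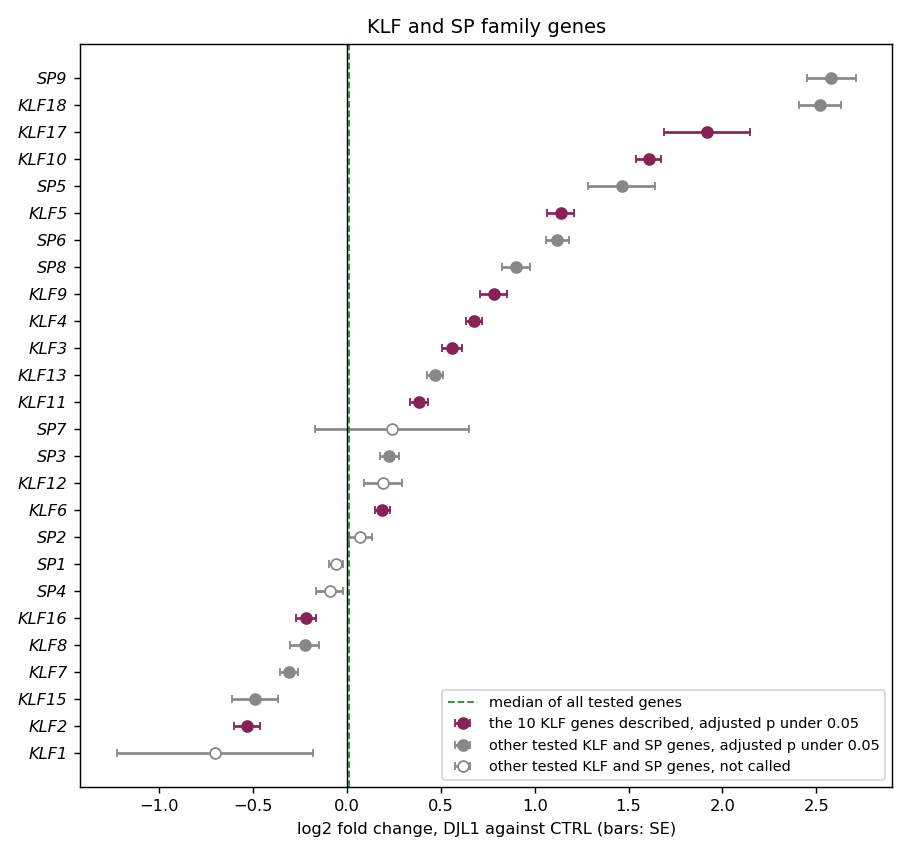
Log2 fold change of DJL1 against CTRL with its SE (horizontal axis) for the 10 KLF genes described (purple) and 16 other tested KLF and SP genes (grey), with open points for genes not called and a dashed line at the median of all tested genes. KLF18 and SP9 lie above every one of the 10, and KLF2 lies below all other called genes.

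Genes whose products work with KLF proteins went both ways, as did all tested genes, of which 27.0% were higher and 25.1% lower. Of 12 corepressors and coactivators, 4 were higher, 3 lower and 5 not called, with a median log2 fold change of 0.04. RCOR1, a corepressor of the REST complex, rose by 0.77 on the log2 scale (CTRL 69.96 ± 2.97 CPM, DJL1 119 ± 4.17 CPM), and the acetyltransferase gene KAT2B by 0.63. CTBP1, which encodes a CtBP protein, had a log2 fold change of -0.28 and the deacetylase gene HDAC2 of -0.18, both called. CTBP2, the other CtBP gene, had a log2 fold change of 0.08, from 184 CPM in CTRL to 195 CPM in DJL1. Its DJL1 libraries all lay above CTRL, but it was not called. SIN3A and SIN3B, the partners of KLF9, KLF10, KLF11 and KLF16, were not called either. Of 10 ubiquitin ligase genes linked to turnover of KLF proteins, 5 were higher, 1 lower and 4 not called, with a median of 0.11. FBXW7, a ligase adaptor for KLF2 and KLF5, rose from 28.8 ± 1.59 CPM to 61.8 ± 2.66 CPM (1.10 on the log2 scale), FBXO32 rose by 2.30 from 1.37 CPM, and VHL fell by 0.25 on the log2 scale.

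Of 20 genes of signals upstream of KLF genes, 7 were higher, 8 lower and 5 not called, with a median of 0.02. The shares over all tested genes were 27.0% higher and 25.1% lower. NR3C1, which encodes the glucocorticoid receptor, rose by 1.06 on the log2 scale (CTRL 14.1 ± 0.75 CPM, DJL1 29.4 ± 3.07 CPM), and MEF2C rose by 1.30 at 0.63 CPM in CTRL. Other genes of the ERK5 and MEF2 pathway did not rise with MEF2C. MAPK7, which encodes ERK5, had a log2 fold change of -0.29 and was called lower. MEF2A (0.068) and MEF2D (0.101), both at higher levels than MEF2C, were not called. SMAD2, a transducer of TGF-beta and activin signals, had a log2 fold change of -0.29 and was called lower. SMAD4 (-0.26) was also called lower, whereas SMAD3 (0.32) was called higher. Immediate early genes, the class of stress and growth-factor responses to which several KLF genes belong, were higher in 14 of 15 cases and lower in none, with a median of 0.69. Unadjusted p-values under 0.05 and the other tools likewise gave 0 lower. EGR2 and ATF3 had the highest log2 fold changes, 1.62 and 1.32, and MYC was not called (0.03). Their summed level ran from 1032 to 1071 CPM in CTRL and from 1571 to 1895 CPM in DJL1, and as for most KLF members DJL1 replicate 2 was the highest library.

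Of 18 naive-state genes outside the KLF family, 17 were tested, 10 were higher, 4 lower and 3 not called, with a median of 0.54. Over all tested genes 27.0% were higher and 25.1% lower. ALPG, a placental-type phosphatase gene used as a naive marker, rose by 1.94 on the log2 scale (CTRL 578 ± 30.8 CPM, DJL1 2223 ± 400.1 CPM), and the homeobox gene ARGFX rose by 1.98 from 0.33 CPM. NANOG had a log2 fold change of -0.50 and FGF4 of -0.54, both called lower, as KLF2 was. DPPA5 (-0.49, from 145 CPM in CTRL to 103 CPM in DJL1) and TFCP2L1 (-0.21) were also called lower. The summed level of the list ran from 3567 to 3726 CPM in CTRL and from 6214 to 7376 CPM in DJL1. Most of that sum, and its rise, came from ALPG, NLRP7 (mean 2136 CPM in CTRL, 3103 CPM in DJL1) and ALPP (205 and 784 CPM). The sum therefore does not describe the list as a whole. DJL1 replicate 2 was the highest library for this sum too, with ALPG at 2668 CPM and ALPP at 968 CPM. It was also the highest for the summed trophectoderm markers (408 CPM).

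Over the 7 libraries, the 3 genes most like KLF17 in log2 CPM, among 13674 genes of at least 5 CPM in a group, were GAREM1, HS3ST3B1 and H2BC21, with Pearson r of 0.995, 0.994 and 0.993. For KLF4 they were EZR, EFHD2 and FST (0.999, 0.999 and 0.998), and for KLF5 SDC3, DDX43 and ADD3 (0.999 each). With 2 groups set apart many genes reach such values: r was above 0.95 for 934 genes with KLF17, 1997 with KLF4 and 1958 with KLF5. These correlations are a description, since the libraries share group, depth and scaling.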

How the data were processed

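RNA-seq of poly(A) RNA was read for 7 libraries, 4 CTRL and 3 DJL1, grouped by their titles. The authors deposited raw counts for each gene symbol, used unchanged. Their table of log values was not used, since its transform is not stated. The authors' deposited comparison gives log2 fold changes, printed here, and per the file headers the raw and adjusted p-value of each gene and 2 further scores (t and log odds), which were left aside. HISAT2 2.2.1, Trim Galore 0.4.0, Subread 1.5.0, featureCounts and the builds hg38 and GRCh38 appear in the submitters' processing notes. For the strand setting and multi-mapping nothing is given in the sources used here.

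Rows passing edgeR's filterByExpr (minimum count 10, minimum total 15) were scaled by TMM factors and tested with edgeR's quasi-likelihood test, robust and 2-sided, with Benjamini-Hochberg adjustment at 0.05. The tested rows held 99.9% of counts, and the scripts were tested on simulated data. The SE was taken from the fold change and F statistic. Log2 CPM used a prior count of 2, exon lengths came from GENCODE release 29, and gene positions and promoter stretches came from RefSeq (GRCh38.p14). The tools were edgeR 4.0.16, DESeq2 1.42.0 and limma 3.58.1 in R 4.3.3, and Python 3.11.15.

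The rule for names took all 10 KLF members and, from each of 6 lists of related genes, the 2 most raised and the 2 most lowered called genes with at least 1 CPM in a group. The 3 genes most like KLF17, KLF4 and KLF5 and the highest pseudogene row were added. One gene that the rule names is not reported here. SP1, MYC, SIN3A, SIN3B, CTBP2, MAPK7, MEF2A, MEF2D, SMAD3, SMAD4, DPPA5, TFCP2L1, KLF14 and KLF3-AS1 were named after their values were seen. So were NLRP7, ALPP, KDR, VWF, RUNX1 and WWP1. The members and lists were chosen with earlier results of these data known. Same-numbered libraries did not deviate together from their group means (r of -0.009, -0.039 and -0.025 across genes), so the replicate number was not used as a block. No batch is given, so a technical difference between the groups cannot be told apart from the transfection.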

Additional observations from a re-analysis of the deposited data

Results flagged for a closer look

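In 3 of 31 genes checked, 1 CTRL library stood apart from the other 3 by a gap over Dixon's 95% critical value for 4 values. Chance gives about 1 in 20 such groups. None of the 10 KLF members was among them. SP9 was at 1.83 CPM in CTRL replicate 3 and at 1.396 to 1.44 CPM in the others. KLF15 was at 4.71 CPM in CTRL replicate 4, with the others at 5.29 to 5.36 CPM. VHL was at 135 CPM in CTRL replicate 2, with the others at 130.1 to 130.7 CPM. Groups of 3 were not checked in this way, so no DJL1 library was assessed.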

How the results depend on the processing

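Each of the 10 KLF members kept its direction and its call under all 17 alternatives run for it: 3 other scalings, 3 fits with other tools (DESeq2 and limma-voom, the latter also with a variance for each group), 2 other filters, thinning to equal depth, 7 fits that leave out 1 library and the replicate block. The counts of 8 higher and 2 lower also stood at an adjusted p under 0.01. At that threshold 5508 of the 26062 tested genes were higher and 5050 lower. The largest adjusted p was 0.016 for KLF16 (without CTRL replicate 4), 0.010 for KLF6 and 0.0098 for KLF17, the latter 2 with the replicate block, under which KLF17 had a log2 fold change of 1.86. That block changed no call among the 10. With libraries left out, KLF17 ran from 1.58 to 2.07, KLF10 from 1.49 to 1.65 and KLF2 from -0.63 to -0.50. Over all genes the replicate block gave 5863 higher and 5614 lower, against 7029 and 6530 without it. Lower ubiquitin ligase genes numbered 1 to 2 with libraries left out, 2 without DJL1 replicate 1. Higher ubiquitin ligase genes numbered 5 in the main fit. They also numbered 5 with limma-voom, upper quartile scaling, library size alone, the stricter filter and without DJL1 replicate 2. Under every other alternative, among them DESeq2, any CTRL library left out and the replicate block, they numbered 4. The weakest of the 5 calls was WWP1 (edgeR adjusted p = 0.048), whose libraries overlapped between the groups. Upstream signal genes called higher ran from 5 (replicate block) to 9 (stricter filter), and those called lower from 6 to 8. Shares taken without length were 27.2% for KLF6, 18.0% for KLF4, 8.57% for KLF3, 6.48% for KLF5, 5.91% for KLF16, 2.81% for KLF9 and 1.79% for KLF2 in DJL1. Counts were fewest for KLF17 among the members, at 125 to 464 per library, and thinning to equal depth gave it a log2 fold change of 1.87.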
